A study of Homo sapiens with 6 samples.

Results

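HMLER is a line obtained by transforming human mammary epithelial cells in culture, with introduced telomerase, viral large-T antigen and oncogenic RAS. Decitabine (DAC, 5-aza-2'-deoxycytidine) is a cytidine analog that is built into DNA and traps DNA methyltransferases, so that methylation is lost as cells divide. The genes described here are those listed as higher in HMLER cells after 10 µM DAC, given daily and collected at 72 h, than in untreated HMLER cells grown in the same medium. Polyadenylated RNA was sequenced from 2 libraries of each condition, each library being a pool of independent extractions, and the deposited table holds 1 value per condition merged over the 2 libraries. Values are FPKM, fragments scaled by transcript length and by the number of mapped fragments. MDA-MB-231, a human breast cancer line treated in the same way, had 1 library per condition. In all, the series has 6 libraries. No vehicle is named for the untreated cells. According to the study's text p53 is blocked in HMLER and mutated in MDA-MB-231.

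The table held 2009 RefSeq transcripts, and each was higher after DAC, with a lowest DAC/untreated ratio of 2.001 and a lowest DAC value of 1.003 FPKM. Genes that were lower or alike in HMLER were not analysed here. Where a gene had several rows, which was the case for 136 genes, the row with the largest summed value was kept, and this left 1854 genes. They were split by their untreated value. In 159 genes it was under 0.1 FPKM, and these are called silent-to-on below. In the other 1695 it was 0.1 FPKM or more, and these are called already expressed. Each value is that of 1 listed transcript and not of the whole gene. Transcripts of the same gene that were not listed could have been expressed before DAC, so silent refers to the listed transcript only. Because 1 merged value per condition leaves no spread between libraries, no test was made and folds are descriptions. The read depth of the HMLER libraries is unknown. The symbols of the MDA-MB-231 table, 23617 in all, stand in for the annotation: 1853 of them (7.85%) were listed for HMLER, 159 (0.673%) as silent-to-on and 1694 (7.17%) as already expressed. C1QTNF5 was the 1 listed gene with no row in the MDA-MB-231 table.

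DNA methylation at CG dinucleotides near a gene's start is one of the ways in which cells keep genes silent, and genes normally used only in germ cells are a textbook case. Inhibitors of DNA methyltransferases are also known to act as a nucleic acid stress, with interferon and p53 responses among the programs that have been described. The letters before the start site differed widely among the listed genes. A stretch of 200 bases that ends 30 bases short of the annotated start, and outside the table's locus, is printed for 3 germ-cell genes that were silent before DAC (PAGE5, MAGEB2 and FMR1NB) and for DAPK1, a death-associated kinase that was silent too. Sequences are from GRCh37, the same assembly as hg19, written 5′ to 3′ on the gene's strand, and the capitals mark each CG dinucleotide.
PAGE5 (chrX:55246549-55246748, plus strand): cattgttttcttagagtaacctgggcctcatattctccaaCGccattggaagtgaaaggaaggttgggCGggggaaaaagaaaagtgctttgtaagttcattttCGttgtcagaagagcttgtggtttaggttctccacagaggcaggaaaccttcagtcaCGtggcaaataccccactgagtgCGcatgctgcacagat
MAGEB2 (chrX:30233450-30233649, plus strand): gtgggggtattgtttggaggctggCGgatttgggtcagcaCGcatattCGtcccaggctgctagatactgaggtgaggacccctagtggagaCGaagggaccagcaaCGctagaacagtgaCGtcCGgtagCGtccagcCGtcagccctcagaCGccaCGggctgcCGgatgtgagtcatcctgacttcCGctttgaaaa
FMR1NB (chrX:147062627-147062826, plus strand): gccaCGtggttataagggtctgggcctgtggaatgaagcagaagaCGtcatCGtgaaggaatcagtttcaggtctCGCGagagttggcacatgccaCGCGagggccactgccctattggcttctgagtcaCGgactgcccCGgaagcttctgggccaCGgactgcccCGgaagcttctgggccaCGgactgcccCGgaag
DAPK1 (chr9:90112552-90112751, plus strand): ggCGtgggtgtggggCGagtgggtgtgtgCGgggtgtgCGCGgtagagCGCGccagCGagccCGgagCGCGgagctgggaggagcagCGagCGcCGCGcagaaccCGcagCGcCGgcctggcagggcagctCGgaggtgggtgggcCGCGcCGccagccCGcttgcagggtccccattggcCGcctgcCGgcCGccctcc
These stretches hold 5, 13, 13 and 26 CG dinucleotides in that order. The genes they precede were thus all listed as silent-to-on with starts that ranged from CG-poor to CG-dense.

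Silent-to-on genes reached low levels. After DAC their median was 1.74 FPKM, 24 of the 159 reached 5 FPKM and 11 reached 10 FPKM. In untreated cells 71 of them were listed at exactly 0 FPKM, so that no fold can be given. Already expressed genes went from a median of 1.26 to a median of 4.93 FPKM, with a median DAC/untreated ratio of 3.34. With 1 FPKM added to each value, the median log2 change was 1.17 for all listed genes, 1.42 for silent-to-on and 1.15 for already expressed genes. That scale understates the change of genes with low values, and 1286 of the 1854 genes (69.4%) were above 1 on it. The median ratio was 5.21 for the 734 genes between 0.1 and 1 FPKM before treatment, 2.78 for the 821 genes between 1 and 10 FPKM and 2.40 for the 140 genes at 10 FPKM or more, so the lower a gene was before treatment the larger its fold. A lower limit of 1 FPKM after DAC makes large folds necessary for genes that start low. Summed over genes, the gain was 16275 FPKM, of which the silent-to-on genes gave 566 (3.48%).

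**Figure D1:**
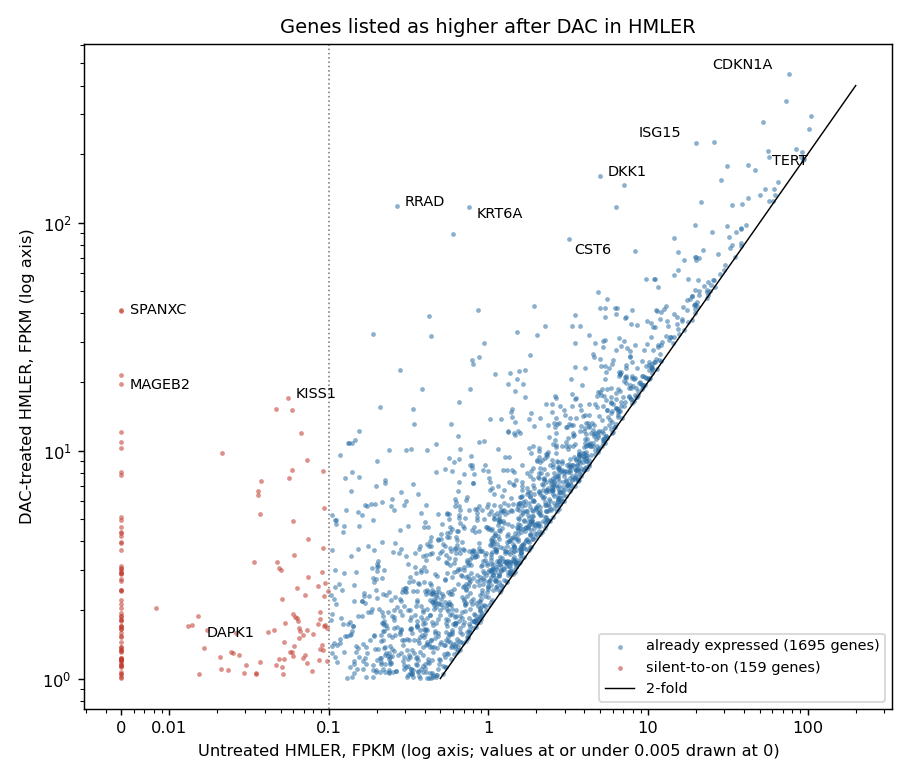
Level of each listed gene in untreated (x axis) and DAC-treated (y axis) HMLER cells, in FPKM on log axes, with silent-to-on genes in red and already expressed genes in blue. The dotted line is the 0.1 FPKM limit, and every point lies on or above the 2-fold line, since the table holds no other genes.

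The limit of 0.1 FPKM falls inside a continuous range. DENND1C (0.0972 FPKM untreated, 1.66 after DAC), DUOX1 (0.0979 and 1.20) and NEFL, a neurofilament subunit (0.0989 and 2.42), lay just inside it. LIPG, a lipase (0.103 and 2.33), IVL, which encodes the cornified envelope protein involucrin (0.103 and 1.80), and HSPB7, a small heat shock protein (0.104 and 3.68), lay just outside.

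Germ-cell genes of the X chromosome led the silent-to-on class. SPANXC, of a sperm nuclear protein family, was at 0 FPKM before treatment and at 41.3 FPKM after it. PAGE5 went from 0 to 21.5 FPKM, MAGEB2 from 0 to 19.6, FMR1NB from 0 to 10.9 and SPANXE from 0 to 10.3 FPKM. The lists of cancer-testis families (MAGE, SPANX, GAGE with PAGE and XAGE, SSX, CT45 with CT47, and others) held 146 measured symbols, of which 21 (14.4%) were listed, against 7.85% of all symbols. Of these 21, 18 were silent-to-on and 16 were at 0 FPKM before treatment. All 7 listed MAGE genes were at 0 FPKM untreated, and after MAGEB2 they ranged from 1.13 FPKM for MAGEC1 to 3.97 FPKM for MAGEA3. Members of these families are near-identical in sequence, MAGEA3 with MAGEA6 and SPANXC with SPANXE among them, so the split of reads between them is uncertain.

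Counted by position, 24 of the 159 silent-to-on genes (15.1%) were on the X chromosome, against 2.42% of already expressed genes and 4.20% of all measured symbols. Cancer-testis lists account for 16 of these 24, and 22 of the 24 were at 0 FPKM before DAC. The others were IL2RG, the common gamma chain of interleukin receptors (0.0214 to 9.75 FPKM), BEX1, a small adaptor of neural tissue (0 to 7.84 FPKM), CFP, which encodes the complement regulator properdin, the growth factor gene FGF16, the receptor gene GPR50, MPC1L, LOC100129520 and FMR1NB, and those outside the largest changes were named after their values were seen. Chromosome 19 had 194 of its 1627 symbols listed (11.9%) and 25 as silent-to-on, and the shares of the other chromosomes lay between 5.98% and 8.77%.

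Outside the cancer-testis families the largest silent-to-on changes were of mixed function. KISS1, the precursor of the kisspeptin peptides, went from 0.0559 to 17.0 FPKM in HMLER, while it was already at 239.9 FPKM in untreated MDA-MB-231 cells. CLDN6, a tight-junction claudin of embryonic epithelium, went from 0.0588 to 15.1 FPKM. RNASE7, an antimicrobial ribonuclease of skin, went from 0.0666 to 12.01 FPKM. SERPINB7, an epidermal protease inhibitor, went from 0.0734 to 9.07 FPKM and TUBA3E, an alpha tubulin, from 0 to 8.04 FPKM. The antisense RNA PROSER2-AS1 was at 0.0467 FPKM before and 15.2 FPKM after DAC. MIR548H3 and SNAR-G1, short noncoding RNAs that were 0 before and 40.95 and 12.04 FPKM after DAC, are too short for FPKM to be a firm measure. Noncoding transcripts made up 222 of the listed genes (11.97%), against 19.95% of all measured symbols.

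Genes of germ-line development were listed in 7 of 49 cases (14.3%). TDRD9, a tudor protein of the piRNA pathway, went from 0.194 to 5.85 FPKM, TDRD12 from 0.0610 to 3.48 FPKM, and HORMAD1, a meiotic chromosome axis protein, from 0 to 2.90 FPKM. STAG3, the meiotic cohesin subunit, went from 0.203 to 3.11 FPKM. Among imprinted genes 8 of 39 (20.5%) were listed, with INPP5F from 0.383 to 18.7 FPKM, DIRAS3, a growth-inhibiting RAS relative, from 2.003 to 32.3 FPKM, NNAT from 0.471 to 10.7 FPKM and IGF2 from 0.0361 to 6.40 FPKM. Which parental copy these transcripts came from was not measured.

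**Figure D2:**
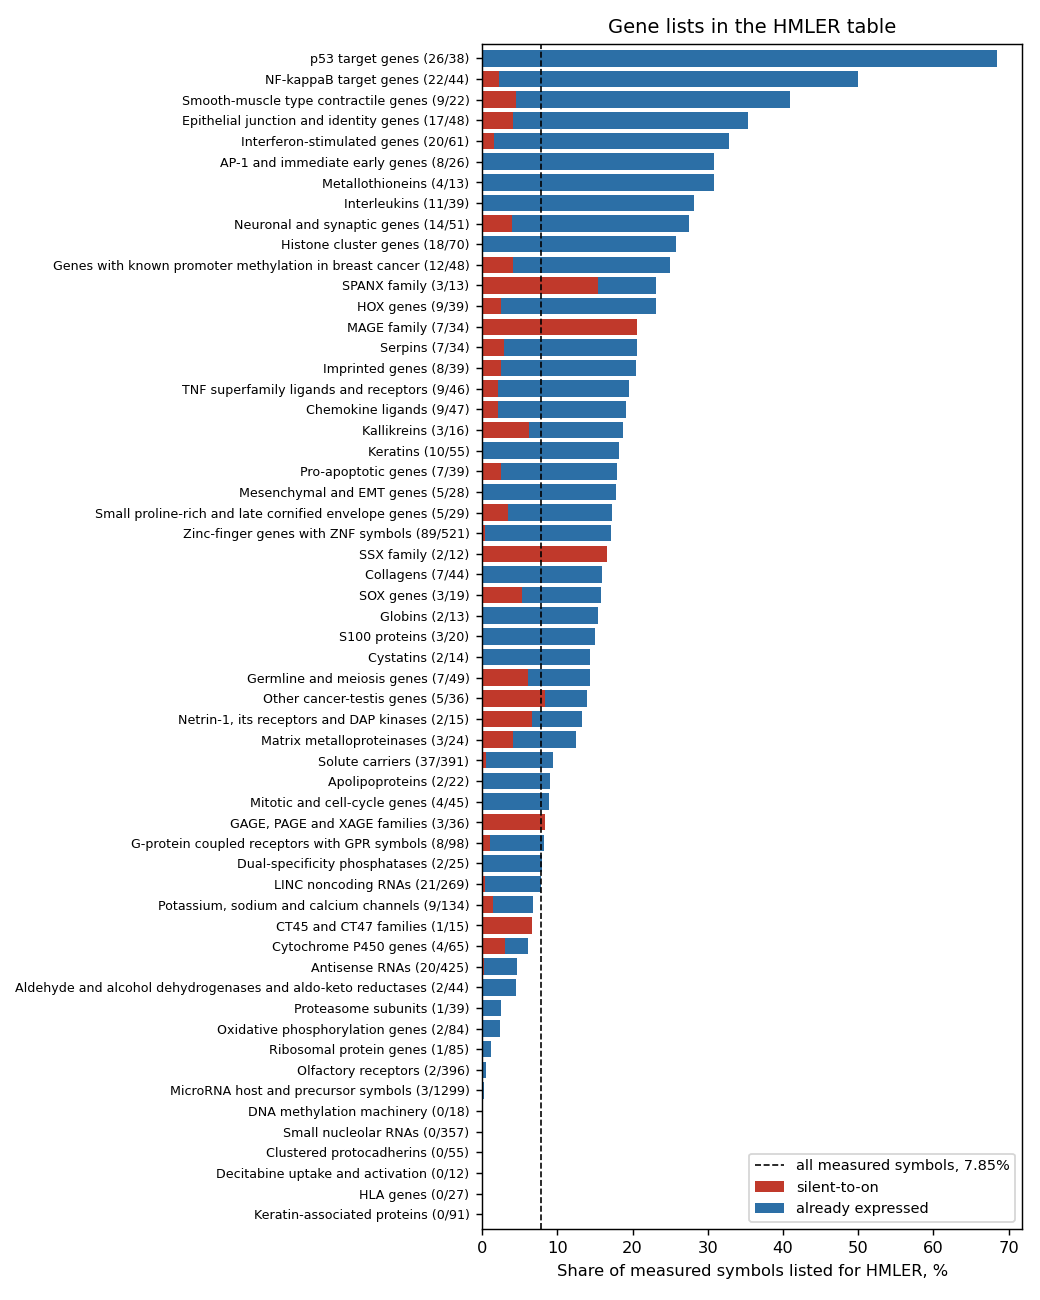
Share of the measured symbols of each gene list (at least 10 measured symbols) that was listed for HMLER, in percent, split into silent-to-on (red) and already expressed (blue). The dashed line is the 7.85% of all symbols, and the p53 and NF-kappaB target lists stand at 68.4% and 50%.

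Of p53 target genes 26 of 38 were listed (68.4%), the largest share of any list over all measured symbols, and none of these was silent before treatment. Among symbols at 1 FPKM or more in MDA-MB-231 their share was 69.7% (23 of 33), where all such symbols stood at 10.9%. Higher shares were those of the SPANX family (2 of 2), globins (1 of 1), chemokine ligands (5 of 6, 83.3%) and interleukins (7 of 10, 70%). The DAC/untreated ratios of the 26 listed p53 targets ran from 2.11 to 31.0 with a median of 3.17. Their values summed to 528.8 FPKM before and 1845 FPKM after treatment. CDKN1A, the p21 inhibitor of cell-cycle kinases, went from 75.9 to 448.7 FPKM, the largest gain in FPKM of any listed gene. GDF15, a secreted stress factor, went from 52.7 to 276.7 FPKM, MDM2, the ubiquitin ligase that degrades p53, from 7.93 to 41.3 FPKM, and the exonuclease gene AEN from 10.9 to 56.4 FPKM. PLK2, a polo-like kinase, went from 2.26 to 35.2 FPKM and TNFRSF10C, a decoy receptor for TRAIL, from 0.327 to 10.2 FPKM. The 12 members not listed included BAX, BBC3 and XPC, and their HMLER values were not analysed here. In MDA-MB-231, 23 of the 26 listed genes reached 1 FPKM in at least 1 library and 5 of these were more than 2-fold higher after DAC, with a median ratio of 1.20. All symbols past that limit were so in 11.5% of cases, and all listed genes in 35%. Genes under 0.5 FPKM untreated pass it only by more than doubling, as GDF15 did in MDA-MB-231 (0.330 to 1.30 FPKM). There MDM2 stood at 12.2 FPKM without DAC (Cuffdiff bounds 6.69 to 17.7) and 12.3 FPKM with it (6.76 to 17.9), whereas CDKN1A stood at 10.9 FPKM (4.27 to 17.6) and 35.8 FPKM (18.99 to 52.5), with bounds that did not overlap. Targets of p53 are also driven by other factors, and p53 protein and its binding were not measured.

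NF-kappaB target genes were listed in 22 of 44 cases (50%), with ratios from 2.32 to 38.1 and a median of 4.69. The chemokine gene CCL20 went from 0.767 to 18.6 FPKM, BIRC3, an inhibitor of apoptosis, from 1.10 to 21.8 FPKM, LCN2, an iron-carrier binding protein, from 0.342 to 13.1 FPKM, and TNFAIP3, which encodes the feedback inhibitor A20, from 1.40 to 15.2 FPKM. CXCL5, a neutrophil chemokine, went from 4.30 to 32.2 FPKM. The transcription factor subunits NFKB2 (2.07 to 9.40 FPKM) and RELB (5.25 to 15.7 FPKM) were listed, while NFKB1, REL and NFKBIA were not. Of the listed members, 14 reached 1 FPKM in MDA-MB-231, and 12 of those were more than 2-fold higher there as well, against the same 11.5%. Members under 0.5 FPKM untreated there could pass this limit only by more than doubling, so part of this share is set by the filter. Among them were LCN2 (0 to 1.68 FPKM), CXCL3 (0.346 to 1.17 FPKM) and ICAM1 (0.447 to 11.6 FPKM). Cytokine families overlap this list. Interleukins were listed in 11 of 39 cases (28.2%), chemokine ligands in 9 of 47 (19.1%) and TNF superfamily genes in 9 of 46 (19.6%). IL12A, an interleukin subunit, went from 0.572 to 4.39 FPKM, and TNFRSF4, the OX40 receptor, from 0 to 3.12 FPKM.

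Promoter letters of 2 chemokine genes are shown because they carry the NF-kappaB core before both the annotated start and the table's locus. The motif searched was GGGACTTTC or GGGAATTTC on either strand, within 250 bases before and 50 after the start. It was found in 8 of the 22 listed members, in 5 of the 21 members with a promoter that were not listed, and in 0.688% of all promoters. The capitals mark it in 40 bases.
CXCL1 (chr4:74735016-74735055, plus strand): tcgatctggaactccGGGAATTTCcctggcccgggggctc
CXCL5 (chr4:74864461-74864500, minus strand): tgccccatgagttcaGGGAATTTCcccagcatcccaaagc
CXCL1 and CXCL5 share 20 of the 40 bases. In HMLER, CXCL1 went from 16.3 to 37.8 FPKM. The other listed members with the motif were CXCL3 (2.33 to 7.88 FPKM), CXCL6 (0.0471 to 1.14 FPKM), SAA1 (42.3 to 179.4 FPKM), SAA2, NFKB2 and TNFAIP3. A match of letters says nothing of whether the factor was bound.

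Interferon-stimulated genes were listed in 20 of 61 cases (32.8%), with a median ratio of 3.66. ISG15, a ubiquitin-like modifier, went from 20.04 to 224.3 FPKM, and the ligase that attaches it, HERC5, from 0.246 to 5.70 FPKM. IFIT2 and IFIT1, which bind viral RNA, went from 2.10 to 13.9 and from 1.62 to 8.69 FPKM, and the RNA sensor DDX58 from 3.08 to 12.7 FPKM. IRF7, a transcription factor of the interferon response, went from 2.02 to 8.97 FPKM. Members that were not listed include MX1, IFI27, BST2 and IRF1, chosen after the list was seen, so part of the program was in the table and part was not. In MDA-MB-231, 15 of the 20 reached 1 FPKM and 9 were more than 2-fold higher, against 11.5% of all symbols, among them ISG15 at 71.4 and 187.3 FPKM. Of these 9, ISG20 (0.406 to 4.52 FPKM) and IFIH1 (0.283 to 1.76 FPKM) could pass the 1 FPKM limit only by more than doubling. The rest of the 9 were above 1 FPKM there before DAC. Cuffdiff's bounds overlapped for each of the 9, with ISG15 at 33.9 to 108.9 FPKM without DAC and 102.2 to 272.5 FPKM with it. The ISRE core GAAANNGAA, on either strand, was in 16 of the 20 listed promoters, in 25 of the 41 that were not listed and in 7.05% of all promoters. Every match is in capitals here for 3 of the listed genes, and matches that overlap or touch form 1 run.
ISG15 (chr1:948749-948788, plus strand): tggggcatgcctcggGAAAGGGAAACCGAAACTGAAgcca
HERC5 (chr4:89378131-89378170, plus strand): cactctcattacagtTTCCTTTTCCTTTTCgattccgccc
IFIT1 (chr10:91152250-91152289, plus strand): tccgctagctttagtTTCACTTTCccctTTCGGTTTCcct
The motif was thus present in most listed and in most unlisted members.

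**Figure D3:**
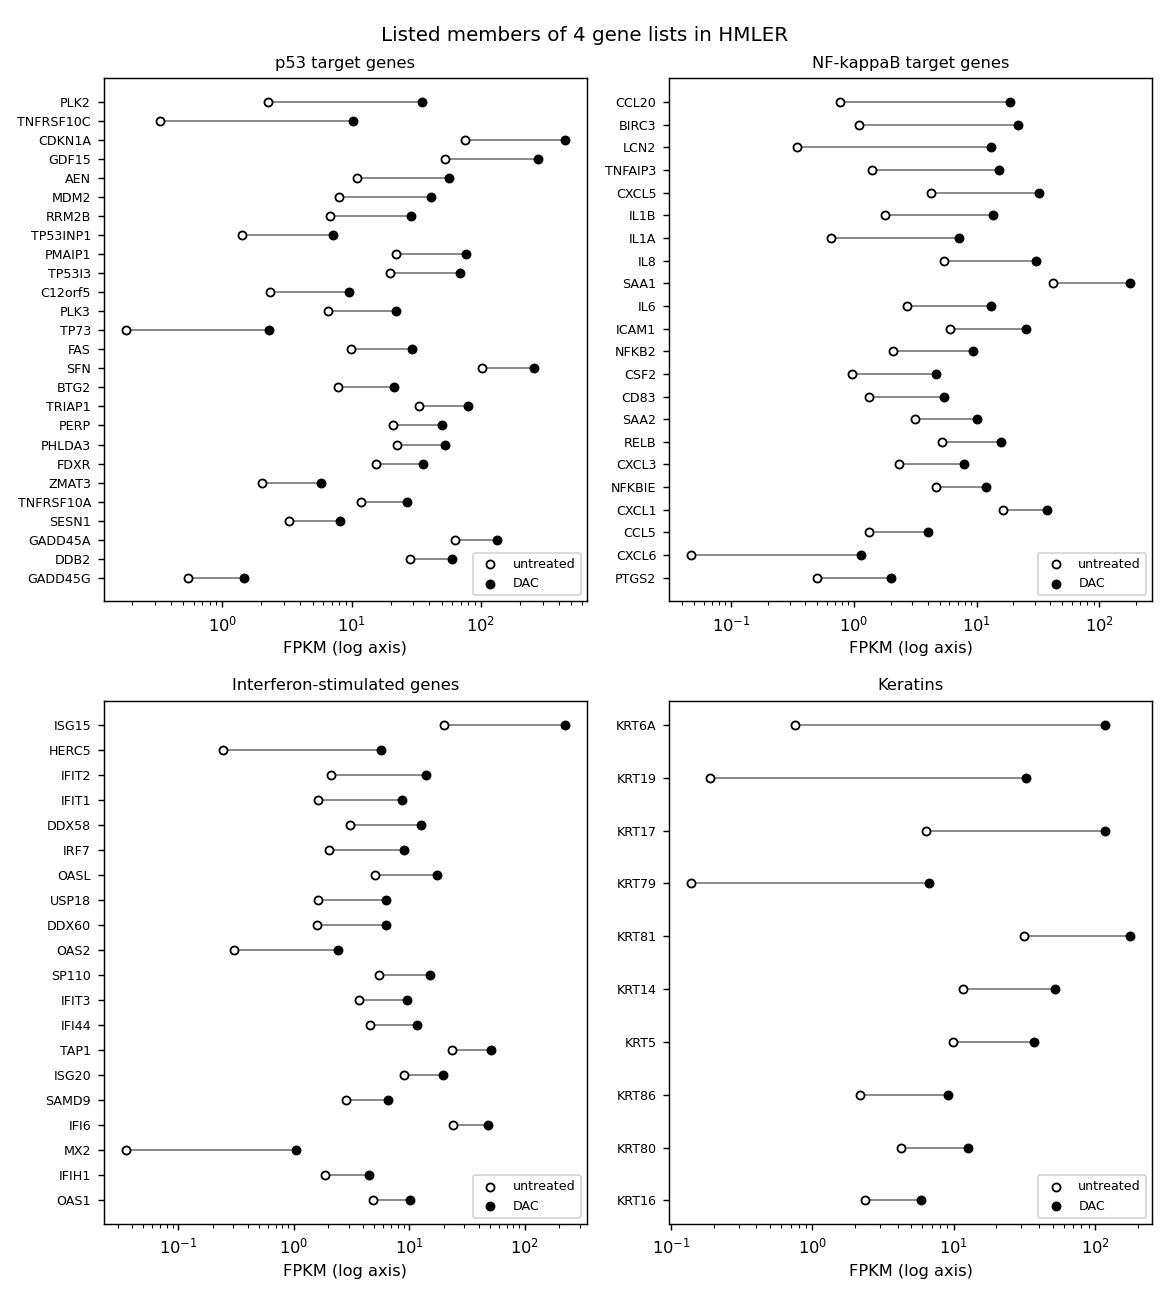
FPKM of each listed member in untreated (open circle) and DAC-treated (filled circle) HMLER cells, on log axes, for the p53, NF-kappaB and interferon lists and for keratins, ordered by log2 change. The p53 members start mostly above 1 FPKM, while KRT6A and KRT19 cross more than 2 decades.

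Genes of stratified and glandular epithelium were listed as well. Keratins were listed in 10 of 55 cases (18.2%), with ratios from 2.46 to 171.4, and their summed value went from 68.8 to 568.9 FPKM. KRT6A, a keratin of activated epidermis, went from 0.759 to 117.4 FPKM, KRT17 from 6.33 to 117.8 FPKM, and the basal pair KRT14 and KRT5 from 11.6 to 52.2 and from 9.85 to 37.1 FPKM. KRT81, a hair keratin, went from 31.2 to 177.7 FPKM. KRT6A and KRT17 have close relatives and pseudogenes, so their reads could be shared. In MDA-MB-231, KRT6A was listed at 0 FPKM in both conditions and KRT17 was 0 and 0.293 FPKM. The late cornified envelope genes LCE1F, LCE1E, LCE1D, LCE1C and LCE1B were listed side by side on chromosome 1, with LCE1C from 0.934 to 29.7 FPKM and LCE1F from 0.871 to 25.7 FPKM. LY6D, a surface protein of keratinocytes, went from 0.439 to 32.0 FPKM and CALML3, an epithelial calmodulin relative, from 0.281 to 22.6 FPKM. Junction and identity genes were listed in 17 of 48 cases (35.4%), with CLDN1 from 0.646 to 11.6 FPKM, PKP2, a desmosomal plakophilin, from 2.66 to 17.1 FPKM, and ESRP2, an epithelial splicing factor, from 3.19 to 13.1 FPKM. The epithelial markers of both layers were among the listed genes, 4 of 8 basal and 4 of 10 luminal. None of 9 fibroblast and 12 leukocyte markers was listed, but at 7.85% of all symbols about 1 would be in lists of this size, so nothing is read from their absence. Mesenchymal genes were listed too, in 5 of 28 cases (17.9%), with the BMP antagonist GREM1 from 11.02 to 56.5 FPKM and the transcription factors SNAI1, SNAI2, SNAI3 and TWIST2. Endothelial markers were listed in 2 of 8 cases, ESAM (0.240 to 10.1 FPKM) and TEK (0.0213 to 1.10 FPKM). Since the table holds only genes that were higher, the level of markers outside it was not analysed here, and more cells of a type cannot be told apart from more RNA per cell.

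The largest log2 changes among already expressed genes did not belong to any 1 family. RRAD, a small GTPase that restrains calcium channels, went from 0.269 to 118.6 FPKM in HMLER and from 0.163 (bounds 0 to 0.488) to 7.08 FPKM (1.35 to 12.8) in MDA-MB-231. ANKRD1, a muscle ankyrin repeat protein, went from 0.597 to 88.9 FPKM and FLNC, the muscle filamin, from 0.424 to 38.9 FPKM. Both were already at 188.3 and 71.9 FPKM in untreated MDA-MB-231 cells. CST6, a cystatin often methylated in breast cancer, went from 3.21 to 84.5 FPKM and DKK1, a Wnt antagonist, from 5.02 to 160.7 FPKM. The lipid droplet protein PLIN2 (1.93 to 43.3 FPKM), the secreted peroxidase GPX3 (0.794 to 24.9 FPKM) and SAP25, a corepressor subunit (0.859 to 41.5 FPKM), completed the highest changes with the genes named above, KRT19 and MMP1. TERT, named after its value was seen, went from 56.8 to 206.5 FPKM, and the introduced copy cannot be told apart from the cell's own gene in these values.

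Contractile and neuronal genes were listed above the share of all symbols too. Smooth-muscle type genes were listed in 9 of 22 cases (40.9%), with TAGLN from 4.84 to 49.5 FPKM, the tropomyosin TPM1 from 33.6 to 120.2 FPKM and ACTA2, smooth-muscle actin, from 7.90 to 24.5 FPKM. Neuronal and synaptic genes were listed in 14 of 51 cases (27.5%), with the pentraxin NPTX2 from 0.210 to 15.5 FPKM, the vesicle protein SYP from 0.630 to 5.97 FPKM and the secreted precursor VGF from 6.60 to 31.1 FPKM. Immediate early genes were listed in 8 of 26 cases (30.8%), led by ARC (1.82 to 26.4 FPKM) and the stress factor ATF3 (1.39 to 14.7 FPKM). Of 48 genes known for promoter methylation in breast cancer 12 (25%) were listed, with TFPI2, an inhibitor of serine proteases, from 3.34 to 35.4 FPKM, SOX17 from 1.01 to 7.56 FPKM and HIC1, a transcriptional repressor, from 0.555 to 5.25 FPKM. DAPK1 (0.0419 to 1.61 FPKM) and the netrin-G1 gene NTNG1 (0.258 to 1.32 FPKM) were the listed members of 15 netrin, receptor and DAP kinase genes (13.3%, against 7.85% of all symbols). NTN1, DCC and the UNC5 genes were not listed, and their HMLER values were not analysed here. The study's text reports NTN1 as raised by DAC in HMLER, measured by quantitative PCR.

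Clustered gene families were found next to each other in the table. Zinc-finger genes with ZNF symbols were listed in 89 of 521 cases (17.1%), 55 of 250 on chromosome 19 (22%) and 34 of 271 elsewhere (12.5%), and the other symbols of chromosome 19 in 139 of 1377 cases (10.1%). Their changes were modest, with a median from 1.33 to 3.62 FPKM. Of these 89 genes, 2 were silent-to-on: ZNF560 (0.0486 to 3.06 FPKM) and ZNF781 (0.0485 to 1.21 FPKM). The longest run of neighbouring listed genes was ZNF266, ZNF560, ZNF426, ZNF121, ZNF561 and ZNF562 on chromosome 19, of which ZNF561 was the highest after DAC (6.48 to 14.3 FPKM). A second run on that chromosome joined ZNF540, ZNF571, ZFP30, ZNF781 and ZNF607, where the loci of ZNF540 and ZNF571 overlap. Histone cluster genes were listed in 18 of 70 cases (25.7%), with HIST1H4H from 1.505 to 33.1 FPKM and HIST1H2BJ from 3.76 to 35.2 FPKM. Most histone messages lack a poly(A) tail, so polyadenylated RNA records only part of them, and histone genes are near-identical in sequence. HOX genes were listed in 9 of 39 cases (23.1%), among them the neighbours HOXB4 (0.221 to 1.79 FPKM), HOXB5 (0.282 to 1.29 FPKM) and HOXB6 (1.56 to 5.47 FPKM) with the antisense RNA HOXB-AS3 (1.39 to 4.14 FPKM). Over the whole genome, 24.7% of listed genes had a listed direct neighbour, against 15.2% of genes that were not listed.

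Several families had few or no listed members. Ribosomal protein genes were listed in 1 of 85 cases, the 1 being RPS27L (61.7 to 140.9 FPKM). Oxidative phosphorylation genes were listed in 2 of 84 cases, COX7A1 and COX6B2, and proteasome subunits in 1 of 39, PSMD11. Mitotic and cell-cycle genes were listed in 4 of 45 cases (8.89%), near the 7.85% of all symbols. DNA methylation machinery (0 of 18) and genes of decitabine uptake and activation (0 of 12) had no listed member, where the share of all symbols amounts to about 1. Clustered protocadherins (0 of 55) and keratin-associated proteins (0 of 91) had no member in the table. Only 9 and 5 of them reached 1 FPKM in MDA-MB-231, and their HMLER values were not analysed here, so nothing is read from their absence. HLA genes were listed in 0 of 27 cases, but the annotation splits them over haplotype copies, which lowers each row. Olfactory receptors were listed in 2 of 396 cases, OR7E14P and OR7E12P, which are both pseudogenes. No olfactory receptor symbol reached 1 FPKM in MDA-MB-231.

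The CG content of promoters differed between the classes. Within the 300 bases from 250 before to 50 after the start, protein-coding silent-to-on genes had a median of 15 CG dinucleotides and already expressed genes 25, against 24 for all protein-coding genes with a promoter. Genes under 0.1 FPKM in untreated MDA-MB-231 cells that were not listed for HMLER had a median of 8. More than 20 CG dinucleotides were found in 37.8% of silent-to-on promoters, 63.1% of already expressed and 27.4% of the unlisted low group. Fewer than 5 were found in 13.3%, 7.02% and 35.9% of them. Silent-to-on genes thus lay between the expressed genes and the unlisted low group. The AP-1 motif TGANTCA was in 11.1% of coding silent-to-on promoters, against 5.28% of all coding promoters and 7.56% of the unlisted low group, and the ETS motif CCGGAAG in 5.19% against 14.5% and 4.20%. Methylation itself was not measured in these files.

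**Figure D4:**
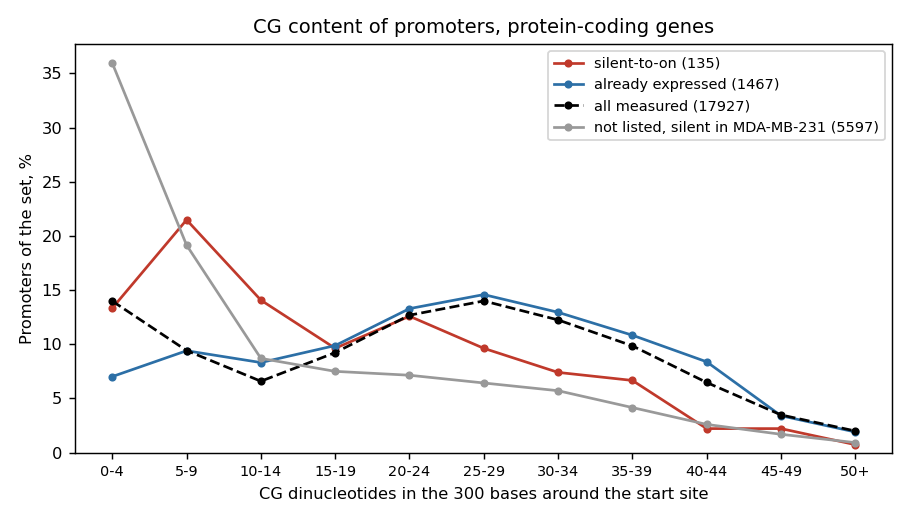
Share of promoters (y axis, percent of the set) by number of CG dinucleotides in 300 bases around the start (x axis), for protein-coding genes. The silent-to-on line (135 genes) peaks at 5 to 9, the unlisted low group (5597) at 0 to 4, and the already expressed line (1467) at 25 to 29.

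In MDA-MB-231 cells the same genes were looked up in libraries the selection had not used. Genes were matched by symbol, with the row of largest summed value chosen in each line, so the transcripts compared may differ. Of the 1346 listed genes at 1 FPKM or more in at least 1 library, 471 (35%) were more than 2-fold higher after DAC, against 11.5% of all 12396 symbols past the filter, and 45 (3.34%) were more than 2-fold lower, against 5.86% of all. The share was 70.8% for silent-to-on genes (46 of 65) and 33.2% for already expressed genes (425 of 1281). With a filter of 5 FPKM the shares were 23.1% (3 of 13) and 19.4%, against 5.17% of all symbols. By untreated level in HMLER it fell from 70.8% to 44.1%, 29.0% and 19.5%. A gene under 0.5 FPKM before treatment passes the filter only by more than doubling, so part of this order is set by the filter, and the genes were therefore also compared within levels of untreated MDA-MB-231 cells. Under 0.1 FPKM there, 32 of 120 silent-to-on genes (26.7%) reached 1 FPKM after DAC, 59 of 373 already expressed genes (15.8%) and 217 of 9381 genes that were not listed (2.31%). Between 0.1 and 1 FPKM, 13 of 20 silent-to-on genes (65%) and 189 of 306 already expressed genes (61.8%) were more than 2-fold higher, against 408 of 2083 genes not listed (19.6%). Between 1 and 10 FPKM, 160 of 572 already expressed genes (28.0%) were more than 2-fold higher, against 267 of 4199 (6.36%) of those not listed, while 1 of 12 silent-to-on genes was. The unlisted group under 0.1 FPKM includes many short RNAs and tissue-restricted genes, and 5234 of its members were at 0 FPKM after DAC. With 1 library per condition these shares have no replicate check. Cuffdiff's bounds were apart for 56 of the 471 listed genes that were more than 2-fold higher, 8 of them silent-to-on. Among all symbols past the filter of 1 FPKM, 1428 were more than 2-fold higher, with bounds apart for 131.

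**Figure D5:**
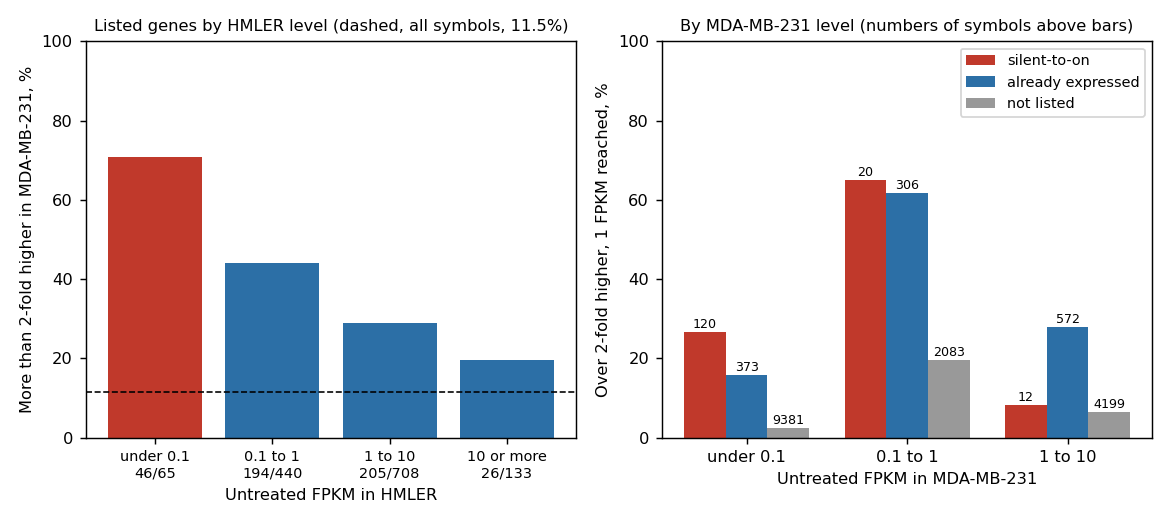
Left, share of listed genes more than 2-fold higher in MDA-MB-231 after DAC, by untreated level in HMLER, with gene counts under the bars and the 11.5% of all symbols dashed. Right, the same share by untreated level in MDA-MB-231 among all symbols of the band for silent-to-on, already expressed and unlisted genes, where listed genes under 1 FPKM stand above unlisted ones.

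Silence before treatment was largely shared by the lines. Of the 159 silent-to-on genes of HMLER, 120 (75.5%) were also under 0.1 FPKM in untreated MDA-MB-231 cells, against 22.0% of already expressed genes and 41.8% of all symbols. In MDA-MB-231, 17 of the 159 were at 0 FPKM after DAC and under 0.1 FPKM before it. MAGEB2 went from 0.150 FPKM (bounds 0 to 0.445) to 9.09 FPKM (2.63 to 15.5) in the second line, and FMR1NB from 0 to 1.99 FPKM (0 to 6.08). PAGE5 was 0.211 FPKM (0 to 0.696) after DAC in MDA-MB-231, and RNASE7 was 0.109 FPKM (0 to 0.340). Among the genes just named, the level after DAC in the second line thus ranged from 9.09 FPKM to near 0. The class as a whole reached higher there, with KISS1 at 239.9 FPKM before and 274.8 FPKM after DAC. In untreated MDA-MB-231 cells, 7 of the 159 were already at 10 FPKM or more.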

How the data were processed

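The authors aligned reads to hg19 with TopHat2 and used Cuffdiff (Galaxy) for the FPKM of each RefSeq transcript. Their versions are not given in the sources used here. The deposited HMLER table holds 1 FPKM per condition, merged by the authors over 2 libraries, and the MDA-MB-231 table the FPKM of each library with Cuffdiff's bounds. The authors' fold change, p-value and q-value columns of the HMLER table were not used. For each symbol the row with the largest summed FPKM was kept, separately in each line, and log2 changes were computed with a pseudocount of 1. With no spread between libraries no test was run. The gene lists and classes were chosen with earlier results of these data known.

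The genes named are the 15 largest log2 changes of each class, up to 6 members of each list, the 3 genes on each side of the 0.1 FPKM limit, the netrin list and runs of 4 or more neighbours. Other names were chosen after their values were seen and are given to place a group, not all of them with their values. Promoters (300 bases) come from GRCh37 and the GENCODE v44 annotation lifted to it, for 94.8% of coding symbols, required to lie within 1000 bases of the table's locus. Gene order comes from RefSeq (GRCh38), of which no coordinates are printed. Of the listed symbols, 2 had been turned into dates by a spreadsheet. The row choice and counting were checked on simulated data. Python 3.11.15, pandas 2.3.3, numpy 2.4.6, scipy 1.17.1 and matplotlib 3.10.9 were used. Alternatives tried were other FPKM limits, pseudocounts, summed rows and filters.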

Additional observations from a re-analysis of the deposited data

Results flagged for a closer look

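Of the listed genes at 1 FPKM or more in MDA-MB-231, 45 of 1346 (3.34%) were more than 2-fold lower there after DAC, opposite to HMLER, against 5.86% of all symbols past that limit. Cuffdiff's bounds were apart for 4 of the 45, named after their values were seen. EDN1, the precursor of the vessel-constricting peptide endothelin, went from 0.0710 to 2.32 FPKM in HMLER and from 33.5 to 9.59 FPKM in MDA-MB-231. NOG, a BMP antagonist, went from 0.365 to 1.203 FPKM and from 25.8 to 5.64 FPKM. AGAP1 went from 0.656 to 3.69 FPKM and from 7.99 to 1.26 FPKM. GSPT1, a translation termination factor, went from 0.312 to 3.18 FPKM and from 56.8 to 0.00118 FPKM. How reads were divided among the transcripts of these genes was not tested, and the transcripts compared between the lines may differ. The genes named by rule among the 45 were COL17A1, a hemidesmosome collagen (0.470 to 8.09 FPKM in HMLER, 6.09 to 2.80 FPKM in MDA-MB-231, a ratio of 0.461), KLF2, a Kruppel-like transcription factor (0.463 to 2.88 FPKM and 11.5 to 5.54 FPKM, a ratio of 0.483), and HIST1H1E, a linker histone (0.373 to 1.01 FPKM and 2.42 to 1.18 FPKM, a ratio of 0.486). The bounds of these 3 overlapped. The difference between the lines was not tested.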

How the results depend on the processing

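No paired analysis was possible because values of HMLER are merged over libraries and the second line has no replicates, and for the same reason no library could be left out. The count of listed genes (1854) was 855 with 5 FPKM or more after DAC and 961 with at least 1 FPKM in each condition, and stayed within 1.5 times with every row, summed rows or a log2 change above 1. The silent-to-on count (159) was 103, 579 and 71 with limits of 0.05, 0.5 and exactly 0 FPKM. With pseudocounts of 0.5 and 0.1 the median log2 change was 1.42 and 1.74 for listed, 2.10 and 3.88 for silent-to-on, and 1.35 and 1.66 for already expressed genes. The share more than 2-fold higher in MDA-MB-231 was 47.4% of listed genes without a filter, 19.4% at 5 FPKM and 38.4% after division by the median ratio. In the same order it was 28.9%, 5.17% and 13.0% of all symbols. For already expressed genes it was 44.6%, 19.4% and 36.8%, and for silent-to-on genes 80.3%, 23.1% (3 of 13) and 70.8%. Among lists of at least 10 symbols, 11 changed sides of the background when the count was limited to symbols at 1 FPKM in MDA-MB-231, among them metallothioneins (4 of 13, none past the filter) and S100 proteins. The cause was not tested. HMLER depth is unknown.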
